A study of Mus musculus with 6 samples.

Results

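The NF-κB pathway genes examined here were 33 mouse genes chosen by name, comprising 5 transcription factor subunits, 13 kinases and adaptors that carry the signal, 7 genes of negative feedback, 2 nuclear IκB proteins and 6 effector targets. All 33 were among the 16081 genes listed in RNA-seq of Lewis cells, a mouse lung carcinoma line, and all 33 passed the filter on low counts that left 11552 genes for testing. Cells were kept for 24 hours under DMSO, the vehicle, or under SD70, an inhibitor of the histone demethylase KDM4C, and each group had 3 samples. The labels describe cultured cells, although their RNA extraction protocol speaks of ground tissue. Both groups were the same unmodified line, the sources used here state no SD70 dose for RNA-seq, and although the study describes its experiments in general as repeated independently, neither its RNA-seq methods nor the labels say that the 3 samples of a group were separate cultures, so p-values measure only the spread between these samples.

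NF-κB is a family of dimeric transcription factors that sit in the cytoplasm bound to IκB proteins. Signals from cytokine and pattern recognition receptors pass through TRAF and RIP adaptors and cIAP ubiquitin ligases to the IKK kinase complex, which marks IκB for destruction and lets the dimers enter the nucleus. Many of the genes that the dimers switch on encode the inhibitors that later restrain them, and others encode adhesion molecules, survival factors and chemokines. In the noncanonical branch, the kinase NIK (Map3k14) and IKKα (Chuk) drive processing of the p100 protein made from Nfkb2, the usual partner of RelB.

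SD70 raised most of these transcripts. At an adjusted p-value under 0.01 in edgeR's quasi-likelihood test, 22 of the 33 were higher under SD70 (66.7%) and 3 were lower (9.09%), and the other 8 did not pass. Among all genes tested the same threshold was passed upwards by 25.8% and downwards by 24.2%. With the added requirement of a log2 fold change of at least 1, 12 members were higher (36.4%) against 3.29% of all genes tested, and 0 were lower against 2.61%. Every SD70 sample lay above every DMSO sample for 23 members, which was so for 32.8% of all genes tested, and below for 3 members, against 31.6%. The median log2 fold change was 0.86 over the 33 members and -0.0043 over all genes tested. Icam1 passed the filter on low counts only through its SD70 libraries, and without it 21 members were higher, 11 of them by a log2 fold change of at least 1, with a median of 0.75.

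**Figure D1:**
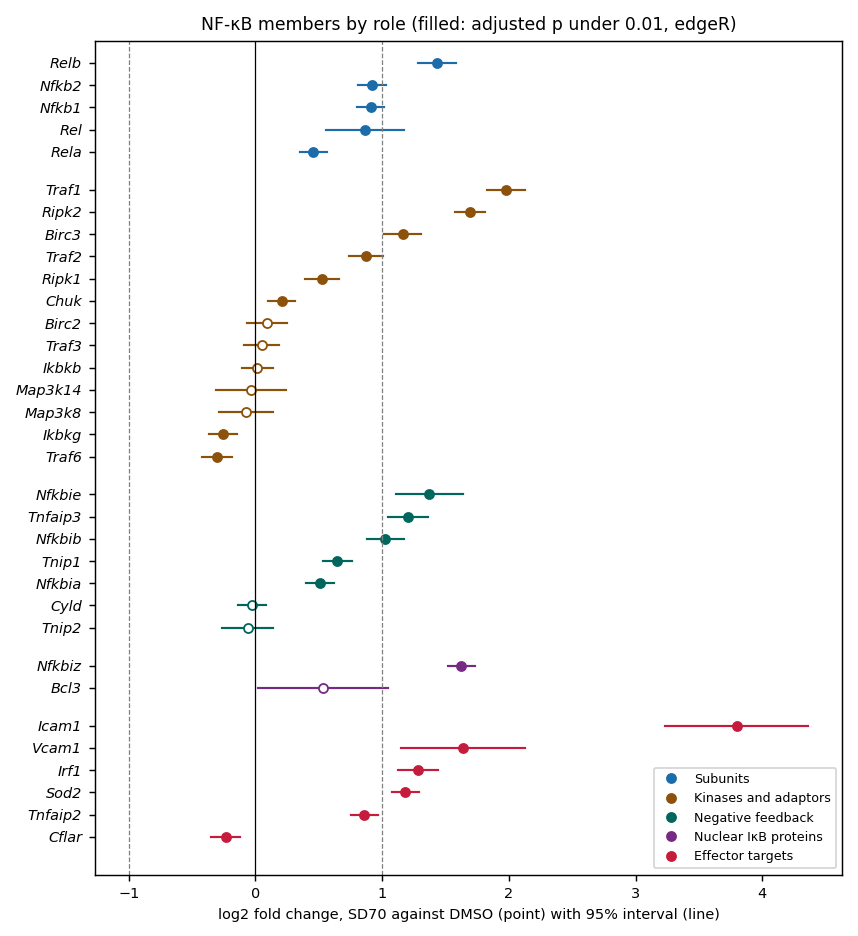
Log2 fold change of each NF-κB member under SD70 against DMSO (x axis, points) with its 95% interval (lines), grouped by role, with dashed lines at a log2 fold change of 1 and -1. Filled points passed the adjusted p-value, and Icam1 lies farthest to the right at 3.80 while the 3 members that fell lie between -0.23 and -0.30.

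The libraries held between 15276744 and 17060424 counts, with normalization factors from 0.984 to 1.02. The members' normalized counts varied little within a group, with a median coefficient of variation of 5.3% under DMSO and 5.31% under SD70. Of the epithelial markers, Epcam, Cdh1, Krt19 and Sftpc had at most 1 count in any library, so the carcinoma label is not borne out by these 4, while Krt8 stood at 146 ± 4.27 FPKM under DMSO and 97.8 ± 5.98 under SD70 (n = 3 per group, SD). Krt18, the other epithelial marker tested, fell from 4.32 ± 0.533 to 1.81 ± 0.157 FPKM (n = 3 per group, SD), a log2 fold change of -1.22 at an adjusted p of 2.97e-07. Of the 6 mesenchymal markers 3 were tested, of which Vim fell from 2490 ± 138 to 1760 ± 81.1 FPKM and Fn1 from 73.6 ± 9.06 to 61.1 ± 2.41, while Pdgfrb rose from 6.56 ± 0.0872 to 18.6 ± 2.23 (n = 3 per group, SD). Summed over all 6, the mesenchymal markers ranged from 2440 to 2730 FPKM under DMSO and from 1750 to 1920 under SD70, mostly Vim. Those not tested, Col1a1, Col1a2 and Acta2, had at most 11 counts in any library. The pan-leukocyte gene Ptprc had 0 counts in the 3 DMSO libraries and 2, 1 and 2 in the SD70 libraries, and the summed level of the 8 leukocyte markers listed was 16.1 to 16.7 FPKM under DMSO and 11.5 to 13.5 under SD70, mostly Cd68. Cd68 fell from 13.6 ± 0.471 to 9.6 ± 0.949 FPKM, while Lyz2, a myeloid lysozyme, stood at 0.84 ± 0.118 and 1.44 ± 0.331 (n = 3 per group, SD) without overlap and did not pass (log2 fold change 0.79, adjusted p = 0.0256). The part of these markers in the members' changes was not tested. Because these are bulk samples, more cells expressing a gene and more RNA per cell cannot be told apart. Kdm4c itself, whose protein SD70 inhibits, had a log2 fold change of 0.02 (adjusted p = 0.769).

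Promoters of the members were searched for κB sites, the short elements that NF-κB dimers bind. RefSeq sequences of GRCm38.p6 from 250 bases before to 50 bases after an annotated start were found for 26 of the 33 members, 35 in all since a gene can have several starts, and not for Vcam1, Ripk2, Ikbkb, Relb, Map3k8, Nfkb1 and Nfkbiz. A match to the κB consensus on either strand was present in 12 of the 26 genes (46.2%), against 9.55% of the 27025 genes in the same table. GGAANTTCC, which overlaps the consensus in part, was present in 3 of the 26 (11.5%) against 1.07%. Of the other patterns scanned, GGANNTTCC matched 7 members (26.9%) against 4.86%, and a stricter form, GGG followed by A or G, any base and TTTCC, matched 6 (23.1%) against 0.92%. The 4 patterns overlap one another and all were tried on the members, and the first 2 were kept for the sites shown after the matches had been seen. The following 30-base windows, read 5′ to 3′ on the gene's strand with the matched letters in capitals, are shown for members whose transcripts rose and, in the last 2 lines, for 2 that did not pass the test.
Nfkb2 (chr19:46305695-46305724, plus strand): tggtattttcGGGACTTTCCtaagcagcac
Rel (chr11:23771042-23771071, minus strand): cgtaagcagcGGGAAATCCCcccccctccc
Nfkbia (chr12:55492657-55492686, minus strand): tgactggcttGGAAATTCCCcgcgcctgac
Nfkbie (chr17:45555584-45555613, plus strand): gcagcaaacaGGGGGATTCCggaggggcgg
Tnfaip3 (chr10:19015403-19015432, minus strand): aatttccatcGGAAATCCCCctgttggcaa
Irf1 (chr11:53769991-53770020, plus strand): agtccgggccGGGGAATCCCgctaagtgtt
Icam1 (chr9:21015777-21015806, plus strand): acttcagtttGGAAATTCCtagatcgcagg
Traf3 (chr12:111166350-111166379, plus strand): ggcggcccgcGGGGATTTCCagcgcgcgag
Cyld (chr8:88696863-88696892, plus strand): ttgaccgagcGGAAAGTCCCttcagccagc
The Icam1 window matches the shorter pattern, and the other windows match the consensus. Of the 12 members with a consensus match, 9 were higher under SD70, 0 were lower and 3 did not pass, and of the 14 members without one, 8 were higher, 3 were lower and 3 did not pass. Among all genes tested, 25.8% were higher and 24.2% lower. With the fold change minimum added, 4 members were higher in each of these sets, against 3.29% of all genes tested. The set without a match includes Icam1, which passed the filter on low counts only through its SD70 libraries, and without it 7 of 13 were higher, 3 of them past that minimum. A match describes the letters only, since binding was not measured.

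All 5 subunit genes rose, against 25.8% of all genes tested, and they rose by unequal amounts. Relb (NCBI Gene 19698, chromosome 7, 19606217 to 19629438 of GRCm38.p6), the subunit of the noncanonical branch, had 413, 382 and 347 normalized counts in DMSO samples 1, 2 and 3 and 923, 1070.5 and 1092 in those given SD70. The groups did not overlap, and Relb was 2.7-fold higher under SD70 (95% interval 2.43 to 3.00, adjusted p = 1.64e-17), with a log2 fold change of 1.43 ± 0.0747 (standard error). Nfkb2 (NCBI Gene 18034, chromosome 19, 46300994 to 46312400), which encodes p100 and its product p52, had 2313, 2182 and 2316 normalized counts under DMSO and 3981, 4244 and 4660.2 under SD70. Nfkb1 (NCBI Gene 18033, chromosome 3, 135584655 to 135691969), which encodes p105 and p50, had 2487, 2456 and 2471 normalized counts under DMSO and 4399, 4506.5 and 5033 under SD70. The 2 precursor genes therefore changed by nearly the same factor, with log2 fold changes of 0.92 for Nfkb2 (adjusted p = 2.61e-16) and 0.91 for Nfkb1 (adjusted p = 1.26e-16). Rel, which encodes the lymphoid subunit c-Rel, was the least abundant subunit at 1.49 ± 0.11 FPKM under DMSO and 2.65 ± 0.319 under SD70 (n = 3 per group, SD), which is a log2 change of 0.86 (adjusted p = 8.8e-06). Rela, the main activating subunit of the canonical branch, rose least, from 38.1 ± 0.307 FPKM to 51.3 ± 1.92 (n = 3 per group, SD), which is a log2 change of 0.46 (adjusted p = 2.95e-09).

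These unequal rises changed the make-up of the subunit pool at the RNA level. On the FPKM scale, which allows for gene length, the 5 subunits summed to 137 ± 1.83 under DMSO and 243 ± 15.4 under SD70 (n = 3 per group, SD). Relb made up 8.45% ± 0.655 of that sum under DMSO and 12.5% ± 0.535 under SD70, whereas Rela made up 27.9% ± 0.579 and 21.2% ± 1.09 (n = 3 per group, SD), and in neither case did the groups overlap. The ratio of Relb to Rela was 0.33, 0.305 and 0.275 in the vehicle libraries and 0.554, 0.596 and 0.627 in those given SD70. The ratio of Nfkb2 to Nfkb1 overlapped between the groups, at 1.24 ± 0.0339 under DMSO and 1.26 ± 0.0238 under SD70 (n = 3 per group, SD, exact permutation p = 0.5, two-sided). The classes and ratios were chosen after the members' values had been seen. Among all genes tested, the normalized counts of 35.6% overlapped between the groups. With 3 samples against 3 an exact permutation test cannot give a p below 0.1, the value for every share or ratio described here as not overlapping.

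**Figure D2:**
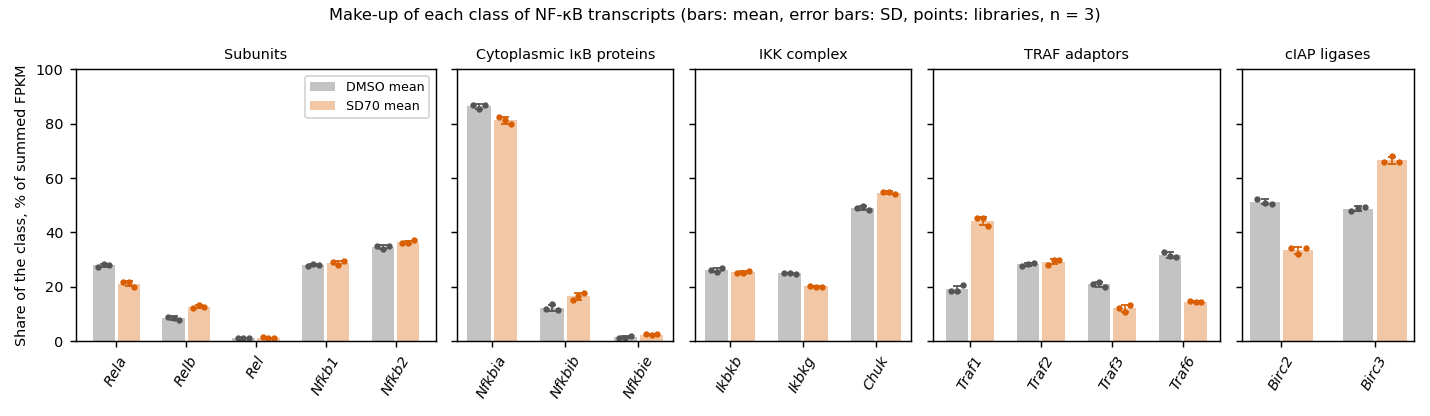
Share of each gene in the summed FPKM of its class (y axis, percent), for DMSO (grey) and SD70 (orange), with bars for the mean, error bars for the SD and points for the 3 libraries of each group. Relb, Traf1 and Birc3 took a larger share under SD70, while Rela, Traf6 and Birc2 took a smaller one.

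Against 25.8% of all genes tested that rose and 24.2% that fell, 6 of the 13 kinases and adaptors rose and 2 (Ikbkg and Traf6) fell. The other 5 did not pass the test, and the median log2 fold change of this group was 0.09. Traf1 (NCBI Gene 22029, chromosome 2, 34941750 to 34961812), a TRAF adaptor without the RING domain of its relatives, rose most in this group. Its normalized counts were 246, 236.0 and 272 under DMSO and 988, 1019 and 964 under SD70, which is 3.94-fold higher (95% interval 3.55 to 4.37, adjusted p = 4.46e-22). Ripk2 (NCBI Gene 192656, chromosome 4, 16122732 to 16163678), the kinase that links NOD receptors to the pathway, had 631, 624 and 571 normalized counts under DMSO and 1985, 1938.5 and 1995 under SD70. The spread within each group was small beside that difference, and Ripk2 was 3.24-fold higher (95% interval 2.98 to 3.52, adjusted p = 6.28e-23). Birc3 (NCBI Gene 11796, chromosome 9, 7847468 to 7873205), which encodes the ubiquitin ligase cIAP2, had 376, 351 and 333 normalized counts under DMSO and 817, 779.55 and 774.5 under SD70. It was 2.24-fold higher (95% interval 2.02 to 2.47, adjusted p = 5.65e-16). Traf2, the adaptor that recruits the cIAP proteins, rose by 0.87 on the log2 scale (adjusted p = 2.16e-13), and Ripk1, the kinase of the TNF receptor complex, with 0.53 (adjusted p = 3.38e-08).

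The 3 genes of the core IKK complex had log2 fold changes between -0.26 and 0.21. Chuk (IKKα) rose by a log2 fold change of 0.21 (adjusted p = 0.00096), Ikbkb (IKKβ) had a log2 fold change of 0.01 (95% interval -0.11 to 0.14, adjusted p = 0.855), and Ikbkg (NEMO, the regulatory subunit) fell by 0.26 (adjusted p = 0.000112). Without DMSO sample 3, the log2 fold change of Chuk was 0.17 and no longer passed (adjusted p = 0.0162). Their summed level overlapped between the groups, at 59.9 ± 0.786 FPKM under DMSO and 61.6 ± 1.3 under SD70 (n = 3 per group, SD, exact permutation p = 0.2, two-sided). The kinase genes Map3k14 (NIK) and Map3k8 (TPL2) did not pass. Their log2 fold changes were -0.04 (95% interval -0.31 to 0.24) and -0.07 (95% interval -0.29 to 0.14). Traf6, the adaptor of the Toll-like and IL-1 receptors, fell by 0.30 on the log2 scale (adjusted p = 4.33e-05), and Traf3, which holds NIK low in resting cells, had a log2 fold change of 0.05 (95% interval -0.09 to 0.19). Birc2, which encodes cIAP1 and lies beside Birc3, had a log2 fold change of 0.09 (95% interval -0.06 to 0.25).

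Paralogues within this group therefore parted. Traf1 made up 19.2% ± 1.16 of the summed FPKM of the 4 TRAF genes under DMSO and 44.2% ± 1.55 under SD70, while Traf6 made up 31.7% ± 1.07 and 14.5% ± 0.289 (n = 3 per group, SD). The ratio of Birc3 to Birc2 was 0.913, 0.964 and 0.975 in the vehicle libraries and 1.92, 2.12 and 1.94 in those given SD70. The ratio of Ripk2 to Ripk1 was 1.97 ± 0.284 under DMSO and 4.29 ± 0.165 under SD70 (n = 3 per group, SD). None of these shares and ratios overlapped between the groups. By comparison, the normalized counts of 35.6% of all genes tested overlapped.

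Of the 7 genes of negative feedback, 5 rose and 0 fell, against 25.8% and 24.2% of all genes tested. The other 2, Cyld and Tnip2, did not pass, and the median log2 fold change of the 7 was 0.65. Nfkbie (NCBI Gene 18037, chromosome 17, 45555700 to 45563169), which encodes the cytoplasmic inhibitor IκBε, had 74.1, 68.0 and 98.8 normalized counts under DMSO and 220.2, 188 and 218 under SD70. It was the most variable of the group under DMSO but did not overlap, and was 2.59-fold higher (95% interval 2.16 to 3.11, adjusted p = 4.27e-11). Tnfaip3 (NCBI Gene 21929, chromosome 10, 19000910 to 19015410), which encodes the ubiquitin-editing enzyme A20, had 408, 354 and 342 normalized counts under DMSO and 935, 842 and 767 under SD70, a log2 fold change of 1.21 (adjusted p = 8.9e-15). Nfkbib (NCBI Gene 18036, chromosome 7, 28758251 to 28766644), which encodes IκBβ, had 377, 392 and 350.03 normalized counts under DMSO and 717, 779.55 and 779 under SD70. Its log2 fold change of 1.02 (adjusted p = 2.04e-14) lay just above the minimum of 1, and was 0.97 without DMSO sample 3, 0.9982 without SD70 sample 3, and 0.96 and 0.99 with limma on log2(FPKM + 1) and log2(FPKM + 0.1). Tnip1, which encodes the A20 partner ABIN1, rose by 0.65 on the log2 scale (adjusted p = 3.59e-12).

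Nfkbia, which encodes the prototype inhibitor IκBα, was the most abundant of all 33 members, at 134 ± 7.97 FPKM under DMSO and 187 ± 9.25 under SD70 (n = 3 per group, SD). Its rise was smaller than those of its relatives, at 0.51 on the log2 scale (adjusted p = 3.45e-10). It made up 86.4% ± 0.952 of the summed FPKM of the 3 cytoplasmic IκB genes under DMSO and 81.2% ± 1.24 under SD70, while the share of Nfkbib went from 12.2% ± 1.09 to 16.4% ± 1.15 (n = 3 per group, SD), without overlap. Cyld, a deubiquitinase that restrains the pathway, had a log2 fold change of -0.03 (95% interval -0.14 to 0.08, adjusted p = 0.664). Tnip2, which encodes the A20 partner ABIN2, had a log2 fold change of -0.06 (95% interval -0.26 to 0.14, adjusted p = 0.628).

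Of the 2 nuclear IκB proteins, which act on chromatin with p50 or p52, Nfkbiz rose. Nfkbiz (NCBI Gene 80859, chromosome 16, 55811375 to 55838954), which encodes IκBζ, a coactivator of secondary response genes, had 2302, 2132 and 2251 normalized counts under DMSO and 6903, 6525 and 7184 under SD70. It was 3.08-fold higher (95% interval 2.86 to 3.32, adjusted p = 7.54e-24), and its level went from 39.6 ± 1.44 to 120.0 ± 5.56 FPKM (n = 3 per group, SD). Bcl3 (NCBI Gene 12051, chromosome 7, 19808462 to 19822824) was scarce, with 22.4, 18.5 and 18.2 normalized counts under DMSO and 26.4, 30.8 and 28.6 under SD70. Every SD70 value lay above every DMSO value, but the log2 fold change of 0.54 (95% interval 0.02 to 1.05) did not pass (adjusted p = 0.0657), so a difference was not established at this depth.

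**Figure D3:**
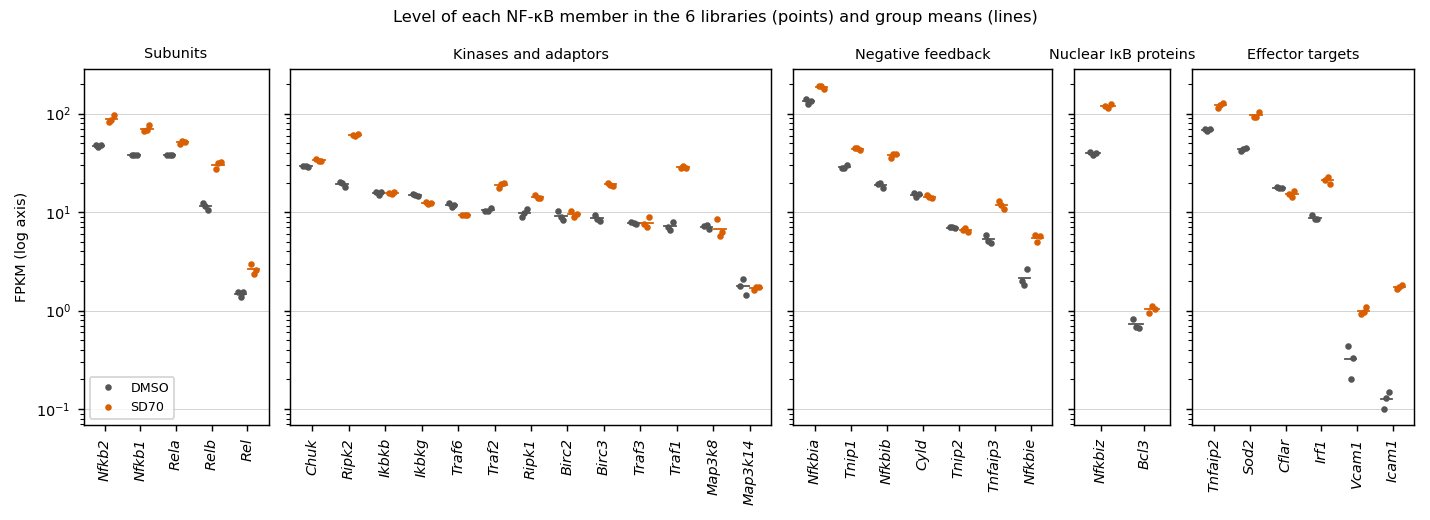
Level of each member in FPKM (y axis, log scale) in the 3 DMSO libraries (grey points) and the 3 SD70 libraries (orange points), with lines for group means and panels for the roles. Levels span from 0.127 FPKM for Icam1 to 134 FPKM for Nfkbia under DMSO, and the points of Relb, Traf1, Ripk2, Nfkbiz and Icam1 separate fully.

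Of the 6 effector targets, 5 rose and 1 fell, against 25.8% and 24.2% of all genes tested. The median log2 fold change of the 6 was 1.24. Without Icam1, 4 of 5 rose and 1 fell, with a median of 1.18. Icam1 (NCBI Gene 15894, chromosome 9, 21015940 to 21028814), the adhesion molecule that leukocyte integrins bind, had 3.90, 4.86 and 5.75 normalized counts under DMSO and 66.0, 69.5 and 71.5 under SD70. The fitted log2 difference was 3.80 with a standard error of 0.279, given as a description and with no p, since Icam1 entered the test only through the libraries in which it was high. It was nearly silent under DMSO at 0.127 ± 0.0252 FPKM, and it reached only 1.74 ± 0.0755 FPKM under SD70 (n = 3 per group, SD). Vcam1 (NCBI Gene 22329, chromosome 3, 116110020 to 116129688), the adhesion molecule bound by VLA-4, was also low, with 23.4, 10.7 and 17.3 normalized counts under DMSO and 49.7, 52.6 and 58.3 under SD70. It was 3.11-fold higher (95% interval 2.21 to 4.37, adjusted p = 4.57e-07), and its DMSO values were the most variable of all members. On the log2(FPKM + 1) scale the changes of these 2 low genes shrank to 1.28 for Icam1 and 0.59 for Vcam1.

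The other effector targets were well expressed. Sod2 (NCBI Gene 20656, chromosome 17, 13007839 to 13018119), the mitochondrial superoxide dismutase, had 2470.2, 2635 and 2686 normalized counts under DMSO and 5722, 5684 and 6308 under SD70, a log2 fold change of 1.18 (adjusted p = 8.53e-20). Irf1 (NCBI Gene 16362, chromosome 11, 53770014 to 53778374), a transcription factor of interferon-responsive genes, had 298, 274 and 278 normalized counts under DMSO and 700.2, 742 and 629 under SD70, a log2 fold change of 1.29 (adjusted p = 4.38e-16). Tnfaip2 was the most abundant effector target, at 69.0 ± 2.07 FPKM under DMSO and 122 ± 8.21 under SD70 (n = 3 per group, SD), which is a log2 change of 0.86 (adjusted p = 4.91e-16). Cflar, which encodes the caspase-8 inhibitor c-FLIP, went the other way and fell by 0.23 on the log2 scale (adjusted p = 0.000524). Its adjusted p-value was 0.0123 and 0.0118 with limma on log2(FPKM + 1) and log2(FPKM + 0.1), above the threshold.

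**Figure D4:**
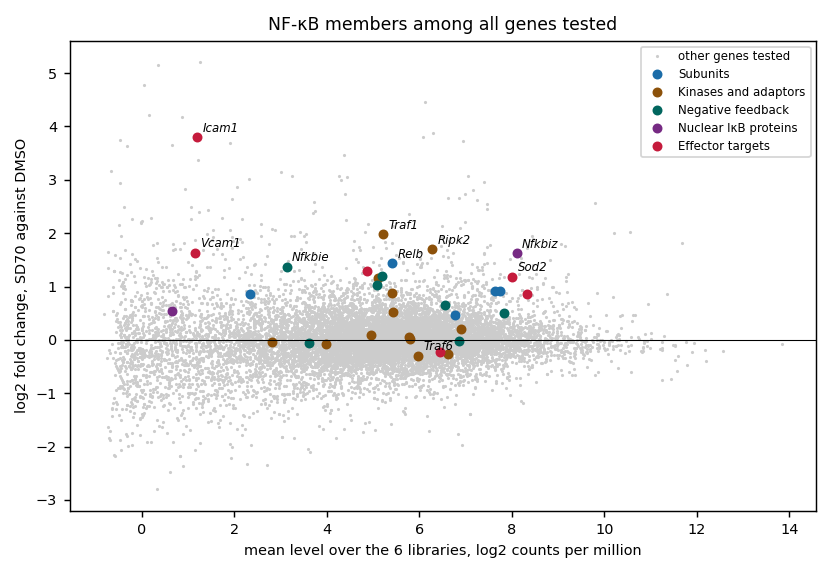
Log2 fold change under SD70 against DMSO (y axis) by mean level over the 6 libraries (x axis, log2 CPM, counts scaled to library size) for the 11552 genes tested (grey) and for the members, coloured by role. The members lie mostly above 0, with Icam1 at 3.80 and Traf1 at 1.98 among the named points.

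Of the 33 members, 10 had exons that overlap another annotated gene, 8 of them on the opposite strand only. They were Nfkb2, Ikbkg, Map3k14, Ripk1, Nfkbib, Bcl3, Icam1, Vcam1, Irf1 and Tnfaip2. Whether the counting used strand is not given in the sources used here, so reads from the overlapping gene cannot be told apart for these.

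Other genes of the pathway were taken from 3 lists of 72 genes, of which 71 were listed and 66 were tested. In all, 31 were higher (47.0%), 9 were lower (13.6%) and 26 did not pass, against 25.8% and 24.2% of all genes tested. Without Ccl5 and Il1a, which passed the filter on low counts only through their SD70 libraries, 29 of 64 were higher and 9 lower. Of 23 receptors and receptor-proximal signalling genes tested, 8 rose and 3 fell, with a median log2 fold change of 0.0066. The 3 with the largest change were Tlr2, the receptor for bacterial lipopeptides (2.18), Cd40 (1.12) and Myd88 (1.04). Cd40 belongs to the TNF receptor family, and Myd88 is an adaptor of the Toll-like and IL-1 receptors. Of 19 further regulators tested, 7 rose and 4 fell, with a median of 0.0354, and the 3 with the largest change were Ikbke, an IKK-related kinase (0.97), Zc3h12a, which encodes the RNase regnase-1 (0.89), and Tank, a TRAF-binding scaffold (0.76). Of 24 secreted and survival targets tested, 16 rose and 2 fell, with a median of 1.81, and 14 of the 16 also had a log2 fold change of at least 1. Among these were Ccl5 and Il1a, named after their values had been seen because they passed the filter on low counts only through their SD70 libraries, and without them 14 of 22 rose, 12 of them past that minimum. In the other direction, Plau, the urokinase gene, was the 1 gene of the list past both thresholds, at -1.39 on the log2 scale (adjusted p = 3.1e-18). Over all genes tested, 3.29% were higher and 2.61% lower past both thresholds. In the secreted and survival list, Csf2, which encodes GM-CSF, changed most (4.46). Next came Cxcl5, a neutrophil attractant (3.15), and Ccl20, the ligand of CCR6 (3.08).

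**Figure D5:**
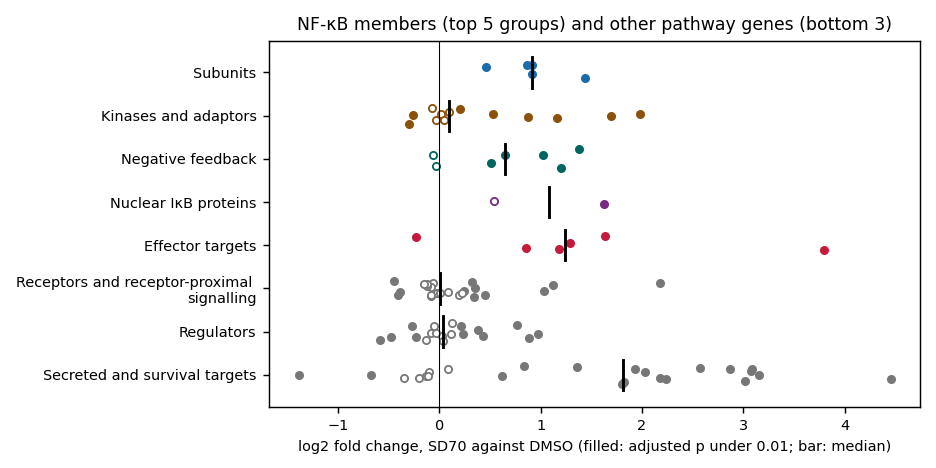
Log2 fold change under SD70 against DMSO (x axis) of each gene in the 5 role groups of members (top, coloured) and in the 3 lists of other pathway genes (bottom, grey), with filled points for genes past the adjusted p-value and black bars for the median of each group. The bars of the effector targets (1.24) and of the secreted and survival targets (1.81) lie farthest to the right, and those of the receptors and regulators lie near 0.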

How the data were processed

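RNA-seq of 6 samples was analysed, 3 with DMSO and 3 with SD70, grouped by the sample labels. The authors aligned clean BGISEQ-500 reads to GRCm38.p6 using HISAT. For every sample they deposited expected counts per gene, which the authors had not normalized. The authors also deposited a second value, headed only as expression, whose behaviour in the files is that of FPKM, so the unit FPKM was inferred. The submitters' processing notes list StringTie 1.3.3b and the build mm8, with no role stated, and coordinates here are those of RefSeq GRCm38.p6.

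Expected counts were rounded. Genes were filtered by filterByExpr, scaled by TMM and tested by robust glmQLFit and glmQLFTest in edgeR 4.0.16 (R 4.3.3), with Benjamini-Hochberg adjustment over 11552 genes. Thresholds were an adjusted p-value under 0.01 and, for the smaller count, a log2 fold change of 1 or more in either direction. Normalized counts are per mean effective library (16559245). Scripts were tested on simulated data. Overlapping exons came from GENCODE M21.

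The members and lists were chosen with earlier results of these data known, so no set test was run. Values per sample are given for members past both thresholds and for the 3 of each role with the largest change, and at most 3 genes of each further list are named. All 6 pairs of libraries from the same group differed by more than counting error, at a chi-square of 2.12 to 4.92 per gene. Alternatives were DESeq2 size factors, other filters, a replicate block, leaving out each sample, the DESeq2 1.42.0 Wald test, limma 3.58.1 on log2(FPKM + 1) and log2(FPKM + 0.1), an adjusted p-value under 0.05 and glmTreat. Nkx2-1, Sftpb, Itgam, Adgre1, Cd3e and Ptx3 were not analysed here.

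Whether equal replicate numbers pair the samples was checked by correlating deviations from the group means. The first check, on 9623 genes with a mean count of at least 100, gave 0.157 to 0.254 for equal numbers. In all, 15 combinations of prior count and count minimum were tried, and every pair exceeded 0.1 in 3 of them, all with that minimum. Over all 11552 genes the range was -0.069 to 0.114, and the fit without a block was kept.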

Additional observations from a re-analysis of the deposited data

How the results depend on the processing

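The number of members past the adjusted p-value was 21 to 22 higher and 3 lower when each sample was left out in turn, and 11 to 12 were higher with a log2 fold change of at least 1, with 0 lower. Chuk no longer passed the adjusted p-value without DMSO sample 3, and Nfkbib fell below the fold change minimum without DMSO sample 3 or SD70 sample 3. For the other pathway genes the ranges were 28 to 31 higher and 6 to 9 lower. Under glmTreat, which tests against a log2 fold change of 1 itself, 7 members were higher in place of 12. Birc3, Nfkbib, Nfkbie, Tnfaip3 and Vcam1 no longer passed. With limma, 10 members were higher past both thresholds on log2(FPKM + 1) and 11 on log2(FPKM + 0.1). Icam1, which passed the filter on low counts only through its SD70 libraries, is counted as higher in each of these fits. Without regard to the fold change minimum, 27 of the 33 members kept their sign and their side of the adjusted p-value in every alternative in which they were tested. The sign turned for 4 members that had not passed. When samples were left out, Ikbkb ranged from -0.0302 (without DMSO sample 2) to 0.0389 and was -0.0106 without SD70 sample 3, Map3k14 ranged from -0.1703 to 0.0878 (without DMSO sample 2), Map3k8 from -0.2443 to 0.035 (without SD70 sample 2) and Traf3 from -0.0502 (without SD70 sample 3) to 0.1224. Ikbkb was -0.0048 and -0.0051 by limma on log2(FPKM + 1) and log2(FPKM + 0.1). The cause was not tested. With at least 10 counts required in every sample, Icam1 was not tested, leaving 21 members higher and 11 past both thresholds. DESeq2 size factors moved the median of all genes by -0.0019.

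With the replicate number as a block, 22 members were higher, 3 lower and 12 higher past both thresholds, as without it. The same 25 members passed, with Icam1 counted among the higher ones. Of the other pathway genes, 31 were higher with the block, as without it, and 10 were lower in place of 9. Over all genes, 5913 passed with the block and 5767 without. Whether the numbers pair the samples depended on the count minimum of the check, with every equal-number correlation above 0.1 in 3 of the 15 settings tried and different-number correlations up to 0.361 in others. Either reading leaves the same members past the adjusted p-value.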
